A study of Mus musculus with 66 samples.

Results

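Krt13, Krt4, Krt6a, Krt6b and Krt16 are 5 keratins of stratified squamous epithelium, and they were followed here through a chemical injury of the mouse colon and its repair. They were chosen by name as the suprabasal and wound keratins, and all 5 were found among the 30452 genes of the deposited table. The 66 samples came from 19 mice of the C57Bl/6 strain, purchased when 6 weeks old, and the labels name no transgene in any group. Mice drank 3% dextran sulfate sodium (DSS), which injures the colonic lining, for 6 days from day 0, and the 4 mice of day 0 were uninjured. The others, 3 mice at each of days 3, 6, 9, 14 and 20, were killed during or after the exposure, so the mice of day 3 had drunk DSS for only part of it. Mid-colon, rectum and anus were taken from every mouse (19 samples each), and a squamous neo-epithelium from the 9 mice of days 9, 14 and 20. The labels call these sections prox, dist, anal and meta, and the mucosal surface was cut from full-thickness tissue before RNA was extracted.

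Keratins build the intermediate filaments of epithelial cells and assemble as pairs of a type I and a type II protein. Krt13 (type I) and Krt4 (type II) are the pair of the suprabasal layers of moist, non-cornifying squamous linings such as the oesophagus, above a basal layer that makes Krt5 and Krt14. Krt6a and Krt6b (type II) with Krt16 (type I) are the wound keratins, which keratinocytes switch on after injury, and some oral and anogenital linings also make them without a wound. The columnar lining of the colon uses simple keratins such as Krt8, Krt18, Krt19 and Krt20 in their place.

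All 5 genes lie in the 2 keratin clusters of the mouse genome (GRCm38), each on the minus strand. The type I genes are on chromosome 11, Krt13 at chr11:100117327-100121566 beside Krt15 and Krt16 at chr11:100246091-100248902 between Krt14 and Krt17. The type II genes are on chromosome 15, Krt6b at chr15:101676023-101680287, Krt6a next to it at chr15:101689910-101694307 and beside Krt5, and Krt4 at chr15:101918535-101924735. Krt6a and Krt6b have coding sequences that are 97.77% identical, with 37 mismatches over 1659 aligned bases. Of the 75-base windows of the Krt6a transcript, the length of the reads, 36.2% occur unchanged in Krt6b. A read from such a window cannot be given to either gene, so the split between Krt6a and Krt6b rests on the other windows and is less certain than their sum. The stretch of coding bases 802 to 876, counted from the start codon, holds 12 of the mismatches and is shown because reads there tell the copies apart (capitals mark the bases that differ, GENCODE vM21 transcripts).
Krt6a: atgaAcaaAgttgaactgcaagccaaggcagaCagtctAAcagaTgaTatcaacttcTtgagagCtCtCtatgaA
Krt6b: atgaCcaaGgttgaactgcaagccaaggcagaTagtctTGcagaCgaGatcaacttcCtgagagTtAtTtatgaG

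No 75-base window of Krt13 or Krt4 occurs in another gene. Krt16 shares 28.9% of its windows, mostly with Gm11597 (22.5%), and Gm11597 was listed at no more than 0.635 TPM in any sample. A further 6.44% of the Krt16 windows occur in Krt14, which stood at 1208 to 10095 TPM in the anus, above Krt16, so the split of these reads is uncertain. TPM is a length-adjusted share of the library's transcripts, so levels of different genes can be set side by side. A short non-coding transcript of the Krt13 gene, 512 bases long and sharing 83.4% of its sequence with the coding transcript, was given 25.7% of the Krt13 TPM over the anal samples and 33.2% over the neo-epithelial samples. It is part of every Krt13 value below.

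The promoter sequence of 1 of the 5 genes, Krt13, was in the RefSeq table used here (GRCm38.p6). Its 250 bases before the start of the coding transcript, chr11:100121567-100121816 on the minus strand, are shown because Krt13 had the highest mean of the 5 in the anus and the neo-epithelium. Capitals mark the only match to TGANTCA, a loose form of the motif of the AP-1 factors (Fos and Jun proteins), with any base at its centre, here A. It lies at bases -196 to -190 from the start, searched on both strands, which this palindrome makes the same search. The 250 bases before the non-coding Krt13 transcript, chr11:100120578-100120827, are not shown and hold 2 matches, both TGACTCA.
Krt13: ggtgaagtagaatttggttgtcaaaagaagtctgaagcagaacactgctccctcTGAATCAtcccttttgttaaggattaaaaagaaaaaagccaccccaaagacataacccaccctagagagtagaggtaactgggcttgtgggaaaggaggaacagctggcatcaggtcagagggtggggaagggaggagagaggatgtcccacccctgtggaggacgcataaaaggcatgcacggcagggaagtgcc
Of 32851 promoters of this length, 6.75% hold the motif, so a match describes the sequence and shows no binding.

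Between 11268 and 13789 genes reached 1 TPM in a sample, and the read depth is unknown because the table holds no counts. Marker genes bore out the section labels in part. The 11 colonocyte markers summed to 6771 to 23594 TPM in mid-colon and rectum. They also reached 6471 TPM in the anus (mouse 5, day 3) and 7991 TPM in the neo-epithelium (mouse 19, day 20). The 8 cornified-epidermis markers found summed to 2127 to 7718 TPM in the anus. The neo-epithelium held 7171 to 14330 TPM of squamous basal markers. It held only 9.6 to 286 TPM of the epidermal ones, and its skeletal muscle markers summed to 2.64 to 12.5 TPM, against 1789 to 18930 TPM in the anus. In bulk tissue, fewer cells of a type and less RNA per cell cannot be told apart, which holds for every result below.

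**Figure D1:**
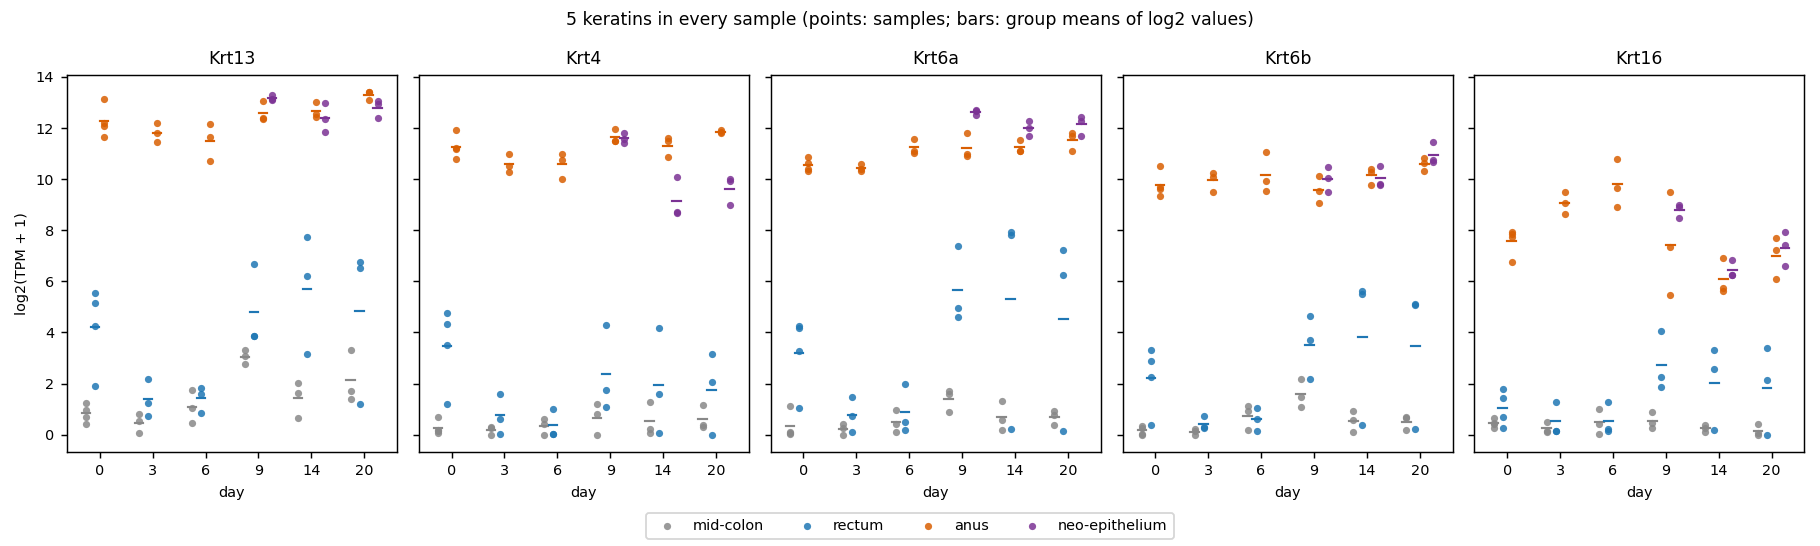
Level of each keratin in every sample as log2(TPM + 1) by day, with 1 point per sample, colours for the 4 sections and bars for group means. Anal and neo-epithelial samples lie far above rectum and mid-colon for all 5 genes, Krt4 in the neo-epithelium drops after day 9, and rectal values spread widely from day 9 on.

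In uninjured mice the 5 keratins were genes of the anus. Krt13 stood at 8919, 4279, 4756 and 3203 TPM in the 4 anal samples, at 45.1, 17.9, 34.2 and 2.76 TPM in the rectum of the same mice, and at 0.34 to 1.34 TPM in mid-colon. Krt4, its partner, had 3864, 2355, 2332 and 1773 TPM in the anus and 26.4, 10.3, 19.3 and 1.29 TPM in the rectum. Krt6a followed at 1260 to 1859 TPM in the anus and 1.06 to 18.3 TPM in the rectum. Krt6b had 643 to 1459 TPM in the anus and 0.314 to 8.81 TPM in the rectum. Krt16 was the lowest, with 212, 242, 106 and 228 TPM in the anus and 0.212 to 2.45 TPM in the rectum. Anal and rectal values did not overlap for any of the 5. Here and below, the share of all genes without overlap was not computed. All 5 were called higher in the anus, where 25.9% of all genes tested were called higher (limma, adjusted p under 0.05). The log2 differences ran from 6.51 ± 0.36 (SE) for Krt16 to 8.06 ± 0.68 for Krt13. Krt6b and Krt16 passed the filter on low values only with the anal samples counted. Krt6a and Krt6b were thus at high levels in the anal samples without any injury. Hair follicle and nail markers summed to 7.57, 574, 886 and 1381 TPM in these samples, and their part in the keratin levels was not tested.

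The uninjured rectum carried a trace of the same keratins, with Krt13 above Krt4 as in the anus. The ratio of Krt13 to Krt4 TPM was 1.70 to 1.77 in the 3 rectal samples with at least 10 TPM of the 5 keratins in sum, and 1.81 to 2.31 in the 4 anal samples. Rectum exceeded mid-colon in Krt13, Krt4 and Krt6a (log2 differences of 3.37 ± 0.64, 3.19 ± 0.63 and 2.86 ± 0.62, limma adjusted p 0.0346, 0.0389 and 0.04998), where 1.52% of genes were called higher. Krt13, Krt4 and Krt6a passed the filter on low values only with the rectal samples counted. Krt6a overlapped between the sections through the 1.16 TPM of mouse 4 in mid-colon. These calls ended with TMM factors (adjusted p 0.0664 to 0.0918), with no filter (0.0881 to 0.104) and without mouse 1, 2 or 3 (0.139 to 0.269), and that for Krt6a also with all 66 samples in 1 fit (0.156). Cornified-epidermis markers in the uninjured rectum summed to 46.0 TPM in mouse 1, which had the most of the 5 keratins, and to 2.6 TPM in mouse 4, which had the least. Their part in the rectal trace was not tested.

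In the anus Krt16 and Krt6a were called higher at day 6, while Krt6b and the suprabasal pair did not pass the test on any day. Krt16 had 725, 539 and 397 TPM at day 3 and 482, 1779 and 814 TPM at day 6, above all 4 uninjured values on both days. It rose at day 6, by 2.23 ± 0.44 on the log2 scale (limma adjusted p = 0.012). At day 3 its difference of 1.51 ± 0.32 was not called (adjusted p = 0.317), on a day when 0.044% of genes were called in either direction. Krt6a had 2104, 3079 and 2203 TPM at day 6, above all uninjured values, and rose by 0.70 ± 0.20 (limma adjusted p = 0.0464). Krt6b had 970, 2139 and 744 TPM at day 6, within the uninjured range but for the second mouse (0.39 ± 0.39, limma adjusted p = 0.585). Thus 2 of 5 were called higher at day 6, beside 8.64% of all genes tested. The call for Krt6a ended without any one of mice 2, 3, 4, 8, 9 and 10 (adjusted p 0.0828 to 0.173), with TMM factors (0.224), with no filter (0.099), with Krt6a and Krt6b summed (0.167) and with all 66 samples in 1 fit (0.665). The call for Krt16 held under each of these.

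Krt13 stood at 3172, 4593 and 1659 TPM in the anus at day 6 and Krt4 at 1721, 2010 and 1035 TPM, overlapping the uninjured values in both cases. Their log2 differences were -0.76 ± 0.41 and -0.69 ± 0.30 (limma adjusted p 0.266 and 0.171). The share of Krt6a, Krt6b and Krt16 in the summed TPM of the 5 keratins was 21.6 to 29.99% in the uninjured anus, 32.1 to 40.1% at day 3 and 42.1 to 58.3% at day 6. These ranges did not overlap. At day 9 the share was 23.2 to 31.9%.

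Other tissue of the anal sample moved at the same time. Colonocyte markers summed to 1600 to 4895 TPM in the uninjured anus and to 50.7 to 108 TPM at day 6, and Krt5 with Krt14, the basal pair, to 1662 to 3697 TPM and 8737 to 12754 TPM. Set against that basal pair, Krt16 at day 6 (5.52 to 15.5 TPM per 100 TPM of Krt5 and Krt14) overlapped its uninjured range (2.98 to 12.8). Krt6a at day 6 (17.3 to 26.8 per 100) lay below its uninjured range (34.1 to 112). Krt13 (13 to 40 per 100 at day 6, 86.6 to 537 uninjured) and Krt4 (8.11 to 19.7 and 48 to 232) did too. The part of tissue makeup in the day 6 differences was not tested further.

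After DSS no member passed the test in the anus. Krt16 stood at 43.5, 718 and 160 TPM at day 9, with mouse 12 alone above the uninjured values, and at 51.7, 118 and 48.5 TPM at day 14, of which 2 lie below every uninjured value. Its day 14 difference of -1.48 ± 0.38 was not called (limma adjusted p = 0.0745) and was called without mouse 3 (0.0319) or mouse 15 (0.0396). Krt6a had 2198, 3270 and 3560 TPM at day 20, all above the uninjured values (0.98 ± 0.21, limma adjusted p = 0.0716, and 0.0452 without mouse 17). Krt13 reached 10831, 10978 and 8817 TPM at day 20, of which 1 falls below the highest uninjured value (1.05 ± 0.32, adjusted p = 0.141). Without mouse 1, the uninjured anus highest in Krt13, that difference was 1.34 (adjusted p = 0.0327), and that of Krt6b 1.05 (0.042 against 0.17 with all mice). Krt4 at day 20 stood at 3618 to 3839 TPM (0.58 ± 0.25, adjusted p = 0.246). No member was called at day 9, 14 or 20, when 5.09%, 4.27% and 1.46% of genes were called in either direction. Krt6a at day 14 was called without mouse 1 (0.0477 against 0.0806). All 5 day comparisons of a section share its 4 uninjured samples.

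In the rectum the trace of squamous keratin was lower at day 6, and it was present again from day 9 in another composition. At day 6 Krt13 had 2.05, 0.795 and 2.54 TPM, below all 4 uninjured samples, and Krt4 0.0265, 0.0231 and 1.01 TPM, likewise below all 4. Krt13 fell by 2.78 on the log2 scale (SE 0.76, limma adjusted p = 0.0169), Krt4 by 3.10 (SE 0.75, 0.0108) and Krt6a by 2.29 (SE 0.77, 0.0362). At this day 37.2% of genes were called lower. Krt13, Krt4 and Krt6a passed the filter on low values only with the uninjured samples counted. Day 3 values were as low (Krt13 at 1.39, 3.48 and 0.65 TPM), but none of the 5 was called against an uninjured group that spread from 2.76 to 45.1 TPM, on a day when 6.62% of genes were called in either direction. With all 66 samples in 1 fit, Krt13 (0.0435) and Krt4 (0.0102) were called lower at day 3. Without mouse 4, the low uninjured sample, 4 members were called lower at day 3 (adjusted p 0.00292 to 0.0042) and Krt6b was also called at day 6 (0.00307). The day 6 call for Krt13 ended without mouse 9 (0.0523). That for Krt6a ended without mouse 1, 2, 3, 8 or 9 (0.0685 to 0.107), with no filter (0.0887), with TMM factors (0.0618) and with all 66 samples in 1 fit (0.0723).

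At day 9 the wound keratins Krt6a and Krt16 were called higher in the rectum, 2 of 5 members, which is near the share of all genes called higher (33.5%). Krt6a had 167, 29.9 and 23.3 TPM at day 9, all above the uninjured values, and rose by 2.45 ± 0.89 (limma adjusted p = 0.0435). Krt16 had 15.7, 2.64 and 3.81 TPM, also above all uninjured values, and rose by 1.68 ± 0.55 (adjusted p = 0.0292). It passed the filter on low values only with the day 9 samples counted. Krt6b (23.9, 12.0 and 3.57 TPM) overlapped its uninjured range and was not called (1.31 ± 0.75, limma adjusted p = 0.172). Krt13 (102, 13.6 and 13.4 TPM) and Krt4 (18.3, 2.39 and 1.14 TPM) overlapped their uninjured ranges and were not called. Both calls were fragile: each ended without mouse 2, 4 or 11 and with no filter on low values, and that for Krt6a also without mouse 12, with a pseudocount of 0.1, with TMM factors and with Krt6b added (adjusted p 0.0545 to 0.143 for Krt6a, 0.0677 to 0.0719 for Krt16). The interaction test of rectal against mid-colonic change called none of the 5 (limma adjusted p 0.179 to 0.966, with 6.55% of genes called in either direction).

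At days 14 and 20 the rectal samples split. Krt6a stood at 226 and 243 TPM in mice 15 and 16 and at 0.159 TPM in mouse 14, and at 150 and 74.8 TPM in mice 17 and 18 against 0.0946 TPM in mouse 19. Krt13 split in the same way, with 210 and 72.8 TPM against 7.8 TPM at day 14 and 108 and 90.9 TPM against 1.28 TPM at day 20. None of the 5 was called at either day, when 15.8% and 7.68% of genes were called in either direction. Without mouse 14 the day 14 values of Krt6a (4.69 ± 0.83, adjusted p = 0.00401), Krt6b (3.36, 0.00875) and Krt16 (1.88, 0.0125) were called higher. Without mouse 19 those of day 20 were called likewise for Krt6a (3.55, 0.0242), Krt6b (2.89, 0.0258) and Krt16 (1.70, 0.0454). Krt4 was at no more than 17.1 TPM at day 14 and 7.88 TPM at day 20, below or within its uninjured range. Squamous basal markers separated the same mice, at 331 to 788 TPM in the 4 high samples and 179 and 183 TPM in the 2 low ones. Cornified-epidermis markers summed to 1.47 to 2.9 TPM in all 9 rectal samples of days 9 to 20, with Lce1a1 at 0 in each of them, against 2.6 to 46.0 TPM in the uninjured rectum.

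In mid-colon no member exceeded 9.05 TPM in any sample. Krt13 was highest at day 9, with 7.43, 9.05 and 5.75 TPM against 0.34 to 1.34 TPM in uninjured mice, a rise of 2.22 ± 0.24 (limma adjusted p = 6.86e-05). Krt6b (1.12 to 3.5 TPM) and Krt6a (0.829 to 2.31 TPM) were called higher as well (1.42 ± 0.25 and 1.07 ± 0.31, adjusted p 0.00127 and 0.0171), among 26.5% of genes. Krt13, Krt6b and Krt6a passed the filter only or mostly through day 9. The call for Krt6a ended without mouse 11 (0.0624) or 12 (0.0739), with no filter (0.0542) and with TMM factors (0.0568). With all 66 samples in 1 fit, Krt6a (0.408) and Krt6b (0.122) were not called. At day 20 mouse 17 had 8.82 TPM of Krt13 and the other mice 2.22 and 1.61 TPM, all above the uninjured values (1.29 ± 0.42, limma adjusted p = 0.123). At day 14 Krt13 was not called (0.59 ± 0.33, 0.353) but was without mouse 14 (0.99, 0.047). At day 3 no member passed the filter, so none was tested (0.375% of genes were called in either direction). Krt13 alone passed it at days 6, 14 and 20 and was not called. On those days 14.9%, 4.36% and 1.56% of genes were called in either direction.

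The neo-epithelium of days 9 to 20 expressed all 5 keratins far above the rectum of the same mice. Krt13 had 9928, 8768 and 8907 TPM at day 9, 3722, 8075 and 5194 TPM at day 14, and 8593, 7843 and 5324 TPM at day 20. Krt6a had 5806, 6495 and 6736 TPM, then 3331, 5000 and 4132 TPM, then 3339, 5527 and 4992 TPM. Together the 5 genes made up 0.846 to 2.04% of all transcripts, by TPM, in the neo-epithelium and 0.646 to 1.99% in the anus. Against the rectum of the same days all 5 were called higher, and every neo-epithelial value lay above every rectal one. The log2 differences were 8.11 ± 0.57 for Krt4, the largest of all 13024 genes tested, 7.68 ± 0.72 for Krt13, 7.09 ± 0.99 for Krt6a, 6.72 ± 0.72 for Krt6b and 5.32 ± 0.48 for Krt16 (limma, each adjusted p at most 2.51e-05). Of all genes, 20.9% were called higher in this comparison. Krt4, Krt6a, Krt6b and Krt16 passed the filter on low values only with the neo-epithelial samples counted. At day 14 alone, with mouse 14 near 0 in the rectum, Krt6a was not called (6.68, adjusted p = 0.0653).

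**Figure D2:**
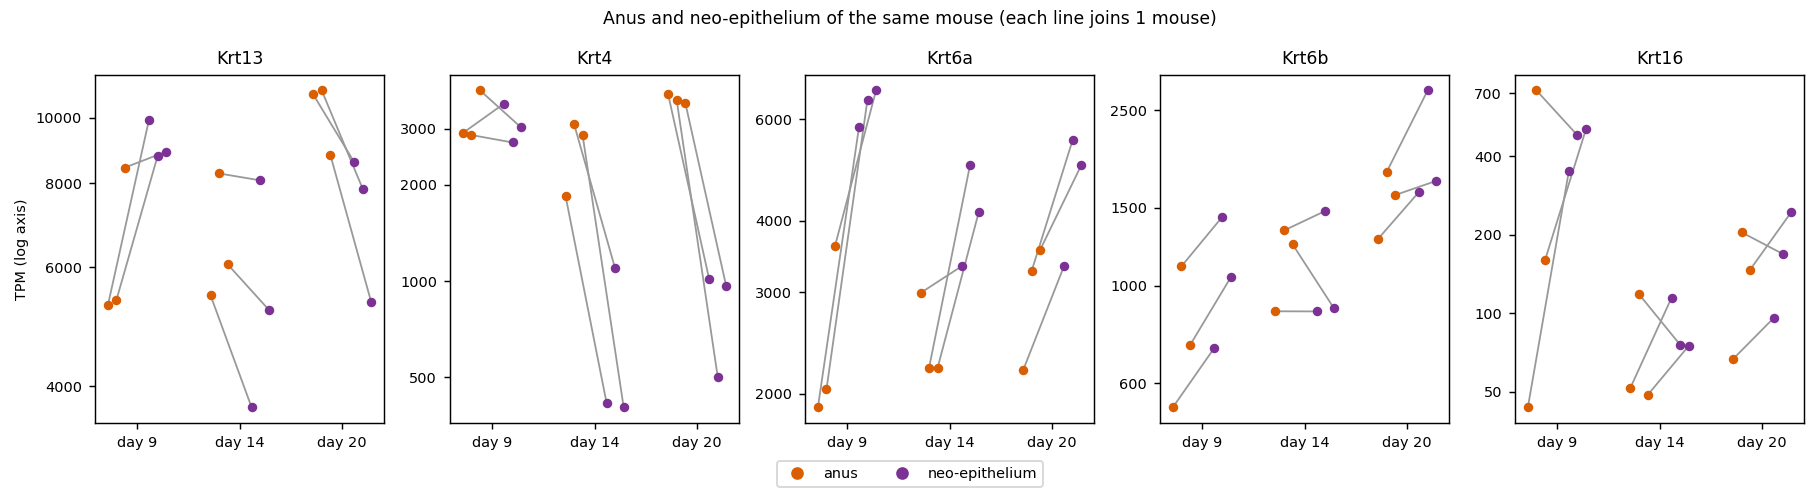
TPM on log axes in the anus (left end of each line) and the neo-epithelium (right end) of the same mouse at days 9, 14 and 20, with 1 line per mouse. Krt6a was higher in the neo-epithelium in 9 of 9 mice, and Krt4 was far lower in all 6 mice of days 14 and 20 but not at day 9.

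Against the anus of the same days, the neo-epithelium was richer in Krt6a and poorer in Krt4. Krt6a was higher by 0.92 ± 0.16 on the log2 scale (limma adjusted p = 1.74e-04), which is 1.89-fold in the mean over mice, and was higher in 9 of 9 mice. Krt4 was lower by 2.79-fold in the mean (log2 difference -1.48 ± 0.31, adjusted p = 6.18e-04) and lower in 8 of 9 mice. With 40.1% of all genes called higher and 19.7% lower, and a median over all genes of 0.18, a call as such was common here. Krt13, the partner of Krt4, differed by -0.07 ± 0.18 (adjusted p = 0.749), Krt6b by 0.23 ± 0.18 (0.285) and Krt16 by 0.69 ± 0.41 (0.159). The call for Krt6a ended with all 66 samples in 1 fit (0.205) and at day 20 alone (0.62, adjusted p = 0.162), while Krt6a and Krt6b summed were higher by 0.75 (4.37e-04).

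Day by day, the 2 tissues drew apart in Krt4. At day 9 Krt4 had 3590, 2715 and 3025 TPM in the neo-epithelium and 2906, 2863 and 3950 TPM in the anus of the same mice, a mean log2 difference of -0.05 that was not called (limma adjusted p = 0.824). At day 14 it had 416, 1096 and 403 TPM against 1847, 3098 and 2855 TPM, which is 4.45-fold lower in the mean over mice. At day 20 it had 1015, 502 and 963 TPM against 3839, 3682 and 3618 TPM, 4.70-fold lower. Krt13 was higher in the neo-epithelium in 3 of 3 mice at day 9 (log2 mean 0.57) and lower in 3 of 3 at day 14 (-0.27) and at day 20 (-0.52), so that its pooled value near 0 averages days of opposite sign. Krt6a was 2.63-fold higher at day 9, 1.67-fold at day 14 and 1.53-fold at day 20. Krt6b exceeded the anus in 7 of 9 mice and Krt16 in 6 of 9.

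**Figure D3:**
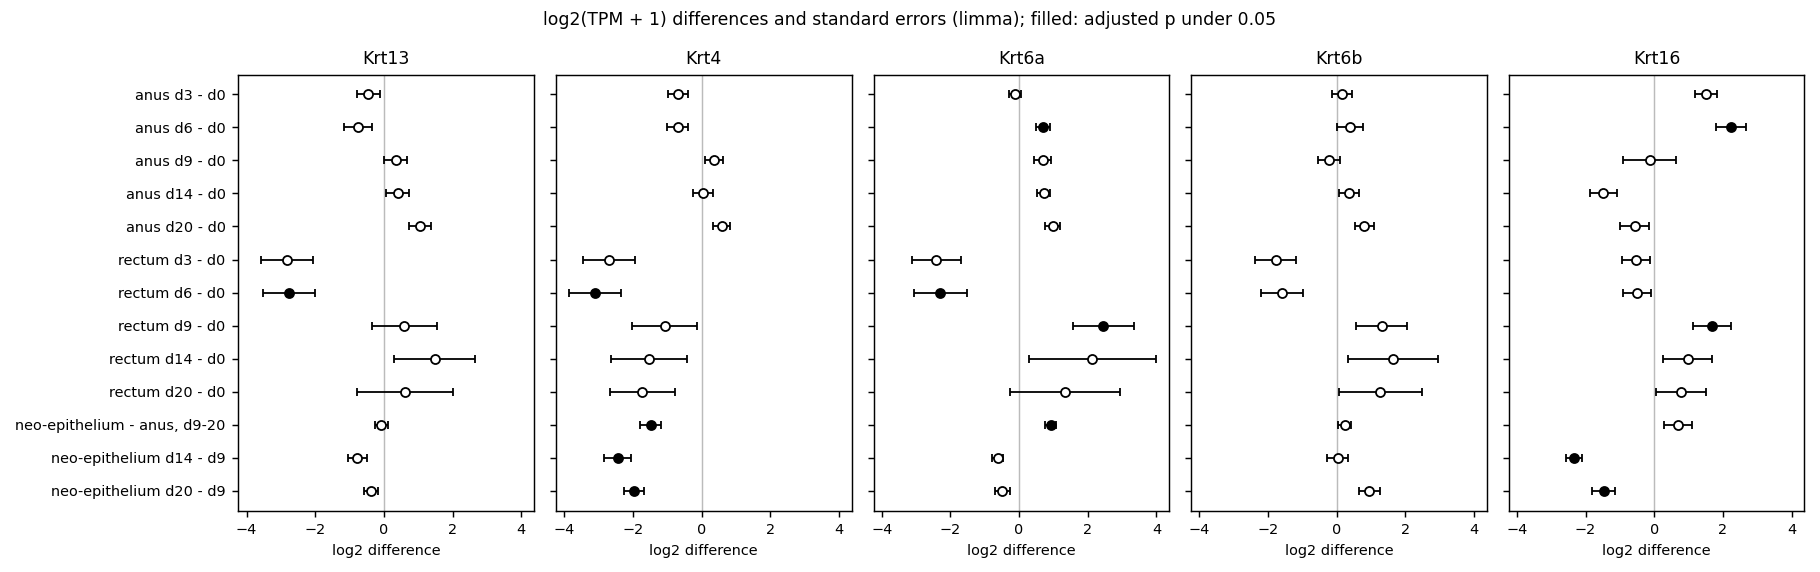
Difference in log2(TPM + 1) between 2 groups (point) with its standard error (bar) from limma for 13 comparisons and each keratin, with filled points for an adjusted p under 0.05. The filled points are Krt4 and Krt16 for the neo-epithelium of days 14 and 20 against day 9, Krt4 and Krt6a against the anus, Krt6a and Krt16 in the anus at day 6 and the rectum at day 9, and Krt13, Krt4 and Krt6a in the rectum at day 6.

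As the neo-epithelium aged, Krt4 and Krt16 fell and the others were not called. From day 9 to day 14 Krt4 fell by 2.44 on the log2 scale (SE 0.39, limma adjusted p = 0.0154) and to day 20 by 1.97 (SE 0.29, 0.0061). Krt16 had 353, 482 and 510 TPM at day 9, 115, 75.7 and 74.8 TPM at day 14, and 96.2, 169 and 244 TPM at day 20. It fell by 2.34 (SE 0.22, adjusted p = 0.00888) to day 14 and by 1.48 (SE 0.34, 0.0238) to day 20. Neither gene's later values overlapped those of day 9. The same held at day 14 for Krt13 and Krt6a, and at day 20 for Krt13, Krt6a and Krt6b. With 3 samples per group, lack of overlap was not a test, and its share over all genes was not computed. Of all genes, 9.77% were called lower at day 14 and 16.1% at day 20. Krt13 at day 14 (-0.77 ± 0.27, adjusted p = 0.1) and Krt6a (-0.63 ± 0.17, 0.0508) lay below their day 9 values without passing. Krt6b was at 720, 1433 and 1046 TPM at day 9 and at 1632, 2771 and 1727 TPM at day 20, the only member whose day 20 values all lay above day 9 (0.95 ± 0.31, adjusted p = 0.0629). Summed with Krt6a, as the split between the copies is uncertain, the pair differed by -0.18 (adjusted p = 0.56).

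Both later days were compared with the same 3 samples of day 9, and single mice decided some of these calls. The day 14 call for Krt4 ended without mouse 12 (adjusted p = 0.0535), 13 (0.0709) or 16 (0.0511), and that for Krt16 without mouse 13 (0.0632). The day 20 call for Krt16 ended without mouse 12 (0.0829) or 13 (0.0936), with no filter (0.0515) and with all 66 samples in 1 fit (0.0772), while that for Krt4 held in every alternative run. Krt6a at day 14 was called lower with TMM factors (0.0306), a filter of 5 TPM (0.0435) and a pseudocount of 0.1 (0.0495). Without mouse 15, Krt13 was called lower at day 14 (-1.06, 0.0363), and Krt6a was called lower at day 14 without mouse 14 (0.0498) or 15 (0.0453).

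The change in Krt4 after day 9 differed between neo-epithelium and anus. The interaction test of the change from day 9 to day 20 between neo-epithelium and anus gave -2.18 ± 0.34 for Krt4 (limma adjusted p = 0.016), where 1.48% of genes were called lower. It was not called without mouse 11 (0.0785) or 12 (0.096) or with all 66 samples in 1 fit (0.165). For Krt13 it gave -1.08 ± 0.30 (adjusted p = 0.0795), which was called with the mouse as a replicate block (0.0486). For the change from day 9 to day 14 no member was called (Krt4 -2.10 ± 0.49, adjusted p = 0.111, and 0.0375 without mouse 15), on a contrast where 0.0697% of genes were called in either direction. Krt16 was not called in either interaction (-0.99 ± 1.08 and -1.04 ± 1.13).

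Markers of other cells in the neo-epithelial section moved over the same days. Colonocyte markers (11 of 11 found) summed to 36.2 to 623 TPM at day 9, 805 to 6386 TPM at day 14 and 3560 to 7991 TPM at day 20. Neutrophil markers (6 of 6) summed to 7241 to 18971 TPM, 1546 to 3896 TPM and 498 to 5653 TPM. Set against the basal pair Krt5 and Krt14 in the same library, Krt4 was at 21.8 to 30.03 TPM per 100 at day 9, 5.08 to 13.9 at day 14 and 5.01 to 15.4 at day 20, without overlap with day 9. Krt16 was at 2.95 to 3.89, then 0.943 to 1.58 and 1.46 to 2.22, also without overlap. Krt6a stayed at 48.5 to 52.4, 45.9 to 63.6 and 45.4 to 55.2, and Krt13 at 64.1 to 83.1, 51.3 to 103 and 48.4 to 130. Krt6b was at 6.02 to 11.6, 11.2 to 18.8 and 15.7 to 27.7. Krt4 and Krt16 of days 14 and 20 thus lay below day 9 both in TPM and relative to the basal keratins of the same sample.

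**Figure D4:**
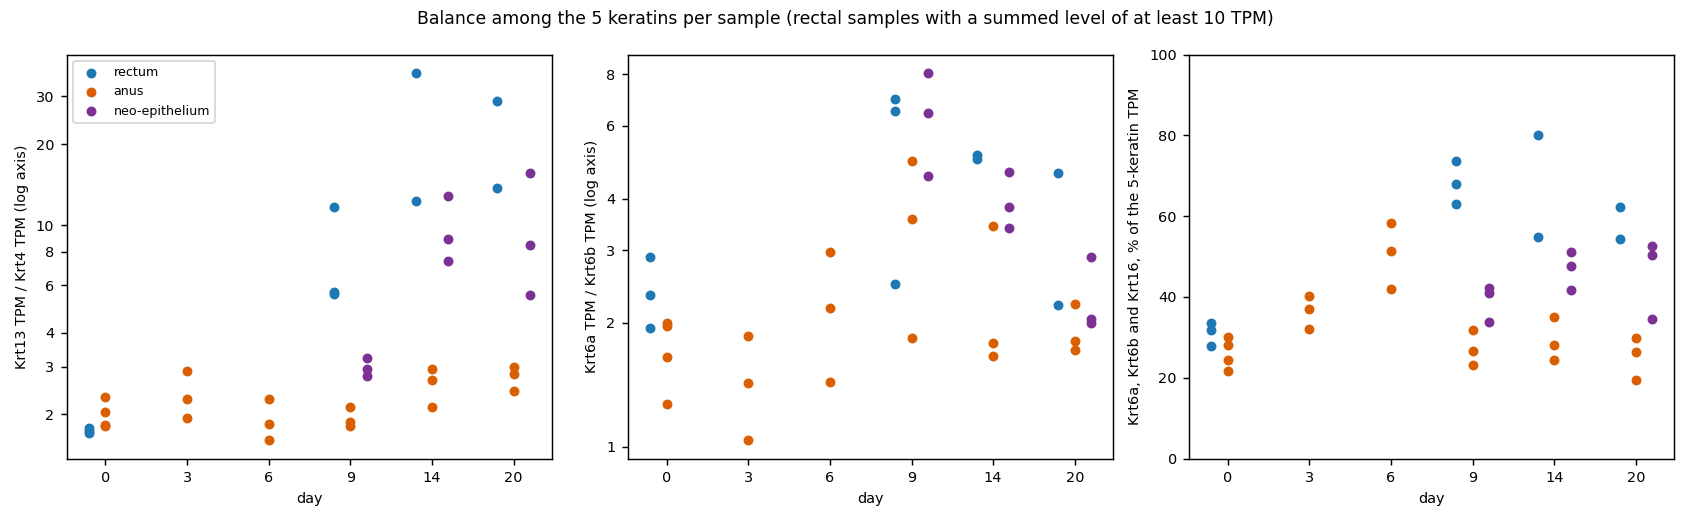
Ratio of Krt13 to Krt4 TPM (left, log axis), ratio of Krt6a to Krt6b TPM (middle, log axis) and share of Krt6a, Krt6b and Krt16 in the summed TPM of the 5 keratins (right) by day, with 1 point per sample in rectum, anus and neo-epithelium. The Krt13 to Krt4 ratio lies at 1.60 to 2.98 in all 19 anal samples and at 5.53 to 15.6 in the neo-epithelium of days 14 and 20.

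The balance within the suprabasal pair set later neo-epithelium and injured rectum apart from the anus. The ratio of Krt13 to Krt4 was 1.60 to 2.98 in the 19 anal samples, whatever the day. In the neo-epithelium it was 2.77 to 3.23 at day 9, 7.37 to 12.9 at day 14 and 5.53 to 15.6 at day 20. In the rectum it was 1.70 to 1.77 before injury and 5.58 to 11.7 at day 9. It was 12.3 and 36.7 in the 2 rectal samples of day 14 with at least 10 TPM of the 5 keratins, and 13.7 and 29.0 in those of day 20. The non-coding Krt13 transcript took 28.5 to 31.2% of Krt13 in the neo-epithelium at day 9 and 29.2 to 50.3% at day 20. In the anus it took 16.15 to 24.3% uninjured, 23.7 to 27.8% at day 9 and 25.5 to 38.1% at day 20. Single rectal samples ran from 0 to 75.1%. Within the wound keratins, Krt6a to Krt6b was 4.53 to 8.07 in the neo-epithelium at day 9, 3.39 to 4.64 at day 14 and 1.99 to 2.89 at day 20, with no overlap between days 9 and 20. In the anus it was 1.27 to 1.99 uninjured, 1.84 to 4.93 at day 9, 1.66 to 3.42 at day 14 and 1.72 to 2.22 at day 20. The day 9 ranges of the 2 tissues thus overlapped. The wound keratins held 33.7 to 52.6% of the sum in the neo-epithelium and 54.3 to 80.1% in the 7 rectal samples of days 9 to 20 with at least 10 TPM of the 5 keratins (mice 14 and 19 fell short of it), against 19.4 to 34.9% in the anus of those days.

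Ordered by mean level over the 21 groups of section and day, the suprabasal keratins peaked in the anus and Krt6a and Krt6b in the neo-epithelium. Krt13 was highest in the anus at day 20 (10209 ± 1208 TPM, SD, n = 3), followed by the neo-epithelium at day 9 (9201 ± 633), whose values overlapped. Krt4 was also highest in the anus at day 20 (3713 ± 113), and the neo-epithelium of days 20 (826 ± 282) and 14 (639 ± 396) came last among the 9 squamous groups. The next group above them, the anus at day 3 (1569 ± 420), did not overlap with day 20. Krt6a was highest in the neo-epithelium at day 9 (6346 ± 483), above day 20 (4619 ± 1141) without overlap. Krt6b was highest in the neo-epithelium at day 20 (2043 ± 632), overlapping the anus at day 20 (1563 ± 269). Krt16 was highest in the anus at day 6 (1025 ± 674), overlapping day 3 (554 ± 164). Most neighbours in these orders overlapped, between 16 and 19 of the 20 neighbouring pairs per gene. The lowest squamous group lay above every rectal and mid-colonic group in each of the 5 orders.

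Other keratins also differed between neo-epithelium and anus. Against the anus, all 6 epidermal keratins tested were lower, from Krt80 (-1.05 ± 0.23) to Krt1 (-6.88 ± 0.55), the suprabasal keratin of skin, and Krt10, its partner, was at 4.13 to 176 TPM against 630 to 2516 TPM. The list's median was -5.05, beside 0.18 over all genes. Of the basal keratins and the wound keratin Krt17, Krt5 (0.65 ± 0.16) and Krt14 (0.67 ± 0.16) were higher, Krt15 was lower (-0.91 ± 0.23) and Krt17 was not called (0.06 ± 0.22). Of 6 simple keratins 5 were higher, most of all Krt8 (3.78 ± 0.57), and Krt23 was lower (-0.66 ± 0.19). Skin and sphincter are part of the anal sample, as the marker sums above show, and their part in these differences was not tested.

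Genes of squamous differentiation, not all of them particular to mucosa, split in the same comparison, in which 40.1% of all genes were called higher and 19.7% lower. Of 23 tested, 5 were higher and 14 lower, with a median of -0.84. The lowest were Sbsn (-5.57 ± 0.22) and Krtdap (-5.29 ± 0.32), and Sprr2a1, a cornified envelope precursor, was the highest (1.51 ± 0.19). The part of the skin in the anal sample in these differences was not tested. Among 21 genes of activated keratinocytes, 14 were higher and 1, the protease inhibitor Slpi (-2.15 ± 0.31), was lower, with a median of 1.24. The matrix protease Mmp10 (3.43 ± 0.50) and the cytokine Il1b (2.37 ± 0.78) were the highest. Of 18 regulators of squamous and wound genes 9 were higher, led by Elf3 (1.35 ± 0.17) and Junb (1.29 ± 0.24), and 3 were lower, Grhl1 (-1.13 ± 0.15) the most, which is near those shares. Trp63, the master factor of squamous epithelium, was not called (-0.33 ± 0.17, limma adjusted p = 0.108). Some genes of the activated list, such as S100a8 and Il1b, are also made by neutrophils, whose marker sums in the neo-epithelium are given above.

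From day 9 to day 20 of the neo-epithelium, 9 of 22 squamous differentiation genes were lower and 2 higher, where 16.1% of all genes were called lower. Sprr3, which seals the envelope of oesophageal cells, fell by 3.12 (SE 0.90, limma adjusted p = 0.0452), and the cross-linking enzyme Tgm3 rose by 3.03 ± 0.36 (0.00374). Of the activated keratinocyte genes 6 of 21 were lower, including S100a8 (-3.71 ± 0.83) and the fibronectin receptor chain Itga5 (-2.41 ± 0.36), and none was higher at an adjusted p under 0.05. Krt17, the neighbour of Krt16 in the genome and a fellow wound keratin, fell by 1.96 (SE 0.23, adjusted p = 0.00374). Among the regulators, Fosl1, an AP-1 subunit of wounded keratinocytes, fell by 1.95 (SE 0.38, 0.0146) and Pitx1 by 1.01 (SE 0.23, 0.0238), while Klf4 (1.33 ± 0.33) and Elf3 (0.76 ± 0.15) rose. The median over all genes in this comparison was -0.14.

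In the anus at day 6, where Krt16 rose, 9 of 21 activated keratinocyte genes were higher and 1 lower, with a median of 1.43 beside 0.07 over all genes, of which 8.64% were called higher. Mmp10 (6.78 ± 0.26) and Il1b (5.86 ± 0.63) had the largest differences and the growth factor Hbegf was lower (-0.90 ± 0.22). Krt17 (1.62 ± 0.40) and Krt14 (2.08 ± 0.29) rose, Krt15 fell by 1.76 (SE 0.23), and Krt5 was not called (1.11 ± 0.36, limma adjusted p = 0.0754). All 6 simple keratins were lower, Krt8 the most (-5.83 ± 0.66), in samples where colonocyte markers were lower too, as given above. Of the regulators, Fosl1 (1.87 ± 0.21) rose most among 5 and Elf3 (-2.41 ± 0.24) fell most among 3. The share of all genes called lower is not given for this comparison, so these counts of lower genes stand without it. In the rectum at day 9, 20 of 21 activated keratinocyte genes were higher, and of the basal keratins and Krt17 3 of 4 (Krt17 3.32 ± 0.63, Krt5 2.71 ± 0.86, Krt14 2.63 ± 0.67), beside 33.5% of all genes. That rectal group held 11103 to 13161 TPM of neutrophil markers, against 0.797 to 5.92 TPM uninjured.

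Across the 21 group means the members resembled one another closely, with Pearson r of 0.955 to 0.995 for the 10 pairs of log2(TPM + 1), because all were high in squamous sections. Within the 9 neo-epithelial samples the likeness was uneven: r was 0.786 for Krt4 with Krt16 and 0.788 for Krt6a with Krt16, but 0.0989 for Krt6a with Krt6b and -0.248 for Krt4 with Krt6b. Within the 19 anal samples Krt13 and Krt4 had r = 0.932 and Krt4 and Krt16 r = -0.524. These are descriptions over samples that share days and tissue makeup.

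Among 7315 other genes, the nearest patterns over the 28 anal and neo-epithelial samples differed by member. For Krt13 they were Serpinb11 (r = 0.9225), Tmprss11a (0.892) and Gsta4 (0.885). For Krt4 they were Aldh3a1 (0.884), Map3k6 (0.876) and Sprr3 (0.872), and Sprr3 averaged 1377 TPM in the anus and 269 TPM in the neo-epithelium. Krt6a was nearest to Cd44 (0.932), the alarmin Il33 (0.927) and P3h4 (0.924), and Il33 averaged 28.3 TPM in the anus and 151 TPM in the neo-epithelium. Krt6b had only weaker neighbours (Dhrs1, 0.706) and so did Krt16 (Lmna, 0.743). Over the 21 group means the nearest were Cd109 for Krt4 (0.994), Krt5 for Krt6a (0.998) and Krt17 for Krt16 (0.987).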

How the data were processed

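The authors deposited one table of transcript abundances in TPM (a length-adjusted signal), made with kallisto and CASAVA on mm10 per the submitters' processing notes, versions not given in the sources used here. The deposited TPM values came from stranded mRNA libraries read as 75 bp single ends, per the labels' protocols. Of 126860 rows, 37344 held no values and 1318 repeated a transcript and were dropped. TPM was summed per gene. kallisto shares ambiguous reads between transcripts by estimation, which affects Krt6a and Krt6b.

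Differences were tested on log2(TPM + 1) with limma 3.58.1 (R 4.3.3; empirical Bayes with trend, two-sided, Benjamini-Hochberg over all tested genes, called under 0.05), after dropping genes that reached 1 TPM in fewer samples than the smaller group contains. Each fit held only the groups compared, and neo-epithelium was compared with anus or rectum with day as a covariate. The fit was tested on simulated data. Replicates are separate mice, numbered in the labels. Sections of one mouse were pairs by those numbers. The mean Pearson r of their deviations from group means was 0.0538 to 0.275 over 7 comparisons. Alternatives were a pseudocount of 0.1, no filter, at least 5 TPM, TMM factors, all 66 samples in 1 fit, Krt6a with Krt6b summed, the mouse as a block, single days and each mouse left out. TMM factors moved the median of all genes by over 0.1 in 8 comparisons, by -0.282 at most (rectum, day 9).

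The members, lists and tests were chosen with earlier results of these data known. Named were the members, the genes of the lists with the largest and smallest differences or not called, and per member the 3 nearest patterns among genes with a mean of at least 8 TPM. Some of these nearest patterns are not reported here. Calculations used Python 3.11.15, numpy 2.4.6 and pandas 2.3.3, and plots matplotlib 3.10.9.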

Additional observations from a re-analysis of the deposited data

Results flagged for a closer look

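In mid-colon of uninjured mice, Krt4 in mouse 4 stood at 0.617 TPM, apart from 0.0314 to 0.122 TPM in the other mice, and Krt6a in the same mouse at 1.165 TPM, apart from 0.0294 to 0.0792 TPM. Both gaps exceed the 95% critical value of Dixon's test (0.829 for 4 samples), at 0.845 and 0.956 of the range. Of 15 groups of 4 tested, 2 stood out in this way, and chance gives about 1 in 20 for independent groups. The 15 groups came from the same 4 mice, and both gaps came from 1 sample with values near 0 TPM. They are therefore not 2 separate events. The change of Krt4 from day 9 to day 20 differed between neo-epithelium and anus, by -2.181 on the log2 scale (limma interaction, adjusted p = 0.016).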

How the results depend on the processing

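Of 295 alternative counts of members called, over 24 comparisons, 243 stayed within 1.5 times the main count, and of 1240 alternative values for single members 1109 kept direction and side of the threshold. The counts that moved were, for the mid-colon at day 9, 1 in place of 3 (filter of 5 TPM, all 66 samples in 1 fit). For the rectum they were 2 in place of 0 at day 3 (all 66), and at day 9 in place of 2 they were 1 (pseudocount 0.1, filter of 5 TPM, TMM factors) or 0 (no filter). For the anus at day 6 the count was 1 in place of 2 (no filter, TMM factors, all 66). For rectum against mid-colon it was 0 in place of 3 (no filter, filter of 5 TPM, TMM factors). For neo-epithelium against anus it was 1 in place of 2 (all 66, day 9 alone, day 20 alone), and from day 9 to 20 of the neo-epithelium 1 in place of 2 (no filter, all 66). For the interaction of neo-epithelium and anus at day 20 it was 0 in place of 1 (all 66). With the mouse as a replicate block, that interaction count was 2 in place of 1, and the pairing by mouse changed no other call. The cause of these moves was not tested.

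With 1 mouse left out, counts ran from 0 to 1 (anus day 14, mid-colon day 14, both interactions with the anus), 0 to 2 (anus day 20, rectum day 9), 0 to 3 (rectum days 14 and 20), 0 to 4 (rectum day 3, rectum against mid-colon, neo-epithelium day 14), 1 to 2 (anus day 6, neo-epithelium day 20), 1 to 4 (rectum day 6) and 2 to 3 (mid-colon day 9).

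Uncalled log2 differences changed sign in some alternatives. With Krt6a and Krt6b summed, that of Krt6b was -0.0027 and 0.43 in the anus at days 3 and 9, -0.52 and -0.18 in the neo-epithelium at days 14 and 20, and 0.57 for rectum less mid-colon. TMM factors gave -0.0198 for Krt4 in the anus at day 14, -0.0456 for Krt6b in the neo-epithelium at day 14 and 0.0382 for Krt6b in the interaction at day 20. Neo-epithelium less anus was 0.57 for Krt13 at day 9 alone and -0.11 for Krt6b at day 14 alone, and a pseudocount of 0.1 gave -0.0433 for Krt6a in rectum less mid-colon. With 1 mouse left out, Krt13 ran from -0.0794 to 0.56 (mid-colon day 6), -0.35 to 1.07 (rectum day 9), -0.35 to 2.44 (rectum day 20) and -0.20 to 0.0087 (neo-epithelium less anus). Krt6a ran from -0.0064 to 3.55 (rectum day 20), Krt16 from -1.16 to 0.85 (anus day 9) and Krt4 from -0.13 to 0.26 (anus day 14). Krt6b ran from -0.0572 to 0.70 (anus day 6), -0.51 to 0.0254 (anus day 9), -0.23 to 0.27 (neo-epithelium day 14), -0.21 to 0.0411 (interaction day 20) and -0.77 to 0.30 (rectum less mid-colon). Depth is unknown, so values near 0 TPM carry no counting interval.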
